A study of Mus musculus with 6 samples.

Results

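The genes described here are 38 members of the pathways that detect, process and join DNA double-strand breaks, taken by name from a table of 46316 gene symbols and followed in cultured mouse B cells. The comparison was between 3 samples of IL-4 + bryostatin 1 and 3 samples of IL-4. Every sample held wild-type naive B cells from the spleen, cultured for 2 days with anti-mouse CD40 antibody at 500 ng/mL and the cytokine IL-4 at 5 ng/mL. The tested samples also received bryostatin 1, a protein kinase C activator, at 0.8 nM, and their controls received none. The study asked how bryostatin 1 acts on class switching in these cells. Neither the labels nor the methods say which strain, age or number of mice gave each RNA sample, so replicates are separate by label alone and a p-value speaks of the spread among 6 libraries, part of which may be technical.

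Class-switch recombination changes the constant region of an antibody by cutting the heavy chain locus at paired switch regions and joining the cut ends. The enzyme AID deaminates cytosines there, base excision and mismatch repair turn the lesions into breaks, and classical end joining, in which Ku binds the ends and XRCC4 and DNA ligase 4 seal them, carries out most of the joining. The protein 53BP1 and its effectors hold back the trimming of the ends, while resection directs breaks towards homologous recombination or towards alternative end joining, which uses short matching sequences and can also complete a switch.

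Libraries held from 19959971 to 24896427 counts over 1 transcript row per gene, and levels are given as CPM (a gene's counts scaled to the library's effective size). A gene was called where edgeR's quasi-likelihood test gave an adjusted p under 0.05, and a log2 fold change is IL-4 + bryostatin 1 over IL-4. The replicates of a group were close (common biological coefficient of variation 3.88%), so small differences passed the test: of 13863 genes tested, 30.1% were called higher and 28.1% lower with bryostatin 1, 58.2% in all. The 10 B cell markers summed to between 13297 and 13962 CPM with bryostatin 1, against between 20806 and 21629 CPM in IL-4, led by a lower Cd74. T cell markers summed to between 4.07 and 4.86 CPM with bryostatin 1, against between 3.84 and 4.33 CPM in IL-4. Of the 2 that could be tested, Trac was called higher (1.00) and Lat lower (-0.49). NK cell markers summed to between 0.647 and 1.66 CPM (14 to 42 counts) with bryostatin 1. In IL-4 they summed to between 0.284 and 0.503 CPM (6 to 11 counts), and none could be tested. The 10 myeloid markers summed to between 22.3 and 25.6 CPM with bryostatin 1, against between 5.08 and 8.24 CPM in IL-4. Adgre1 averaged 19.7 CPM with bryostatin 1 and 3.16 CPM in IL-4. Lyz2 averaged 2.53 CPM with bryostatin 1 and 2.57 CPM in IL-4 and was not called. Itgam reached at most 19 counts and Csf1r 12 in any library, and Cd14 and S100a8 no more than 1. The 6 red blood cell markers summed to between 24.0 and 30.7 CPM with bryostatin 1, against between 0.640 and 1.42 CPM in IL-4. Hbb-bt averaged 26.9 CPM with bryostatin 1 and 0.790 CPM in IL-4, with Alas2 at 0. Plasma cell markers summed to between 548 and 563 CPM with bryostatin 1, against between 529 and 555 CPM in IL-4, and all 5 were called, with Prdm1 (1.68), Jchain (1.28), Sdc1 (1.03) and Irf4 (0.56) higher and Xbp1 (-0.77) lower. The part of these differences in the results below was not tested, and in bulk RNA fewer cells of a type and less RNA per cell cannot be told apart.

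All 38 members passed the filter on low counts, 10 were called higher (30.1% of all genes were) and 7 lower (28.1% of all genes were), and 21 were not called. Scaling to total counts only, which moves the median of all genes by 0.03, gave 14 higher and 5 lower, where 58.3% of all genes were called. Summing the transcript rows of a gene gave 12 higher and 5 lower, where 52.3% of all genes were called. Without these changes the called share was 44.7% of the members beside 58.2% of all genes. In 22 members the groups did not overlap, or 57.9%, beside 63.5% of all genes. The median log2 fold change was 0.04 over the members and 0.00 over all genes tested, and 26 of the 38 members (68.4%) lay within 0.2 of no change, beside 42.8% of all genes tested and 56 of 92 other genes of the same pathways. The range ran from -0.56 for Xrcc1 to 1.08 for Polq, the member that differed by more than 2-fold.

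**Figure D1:**
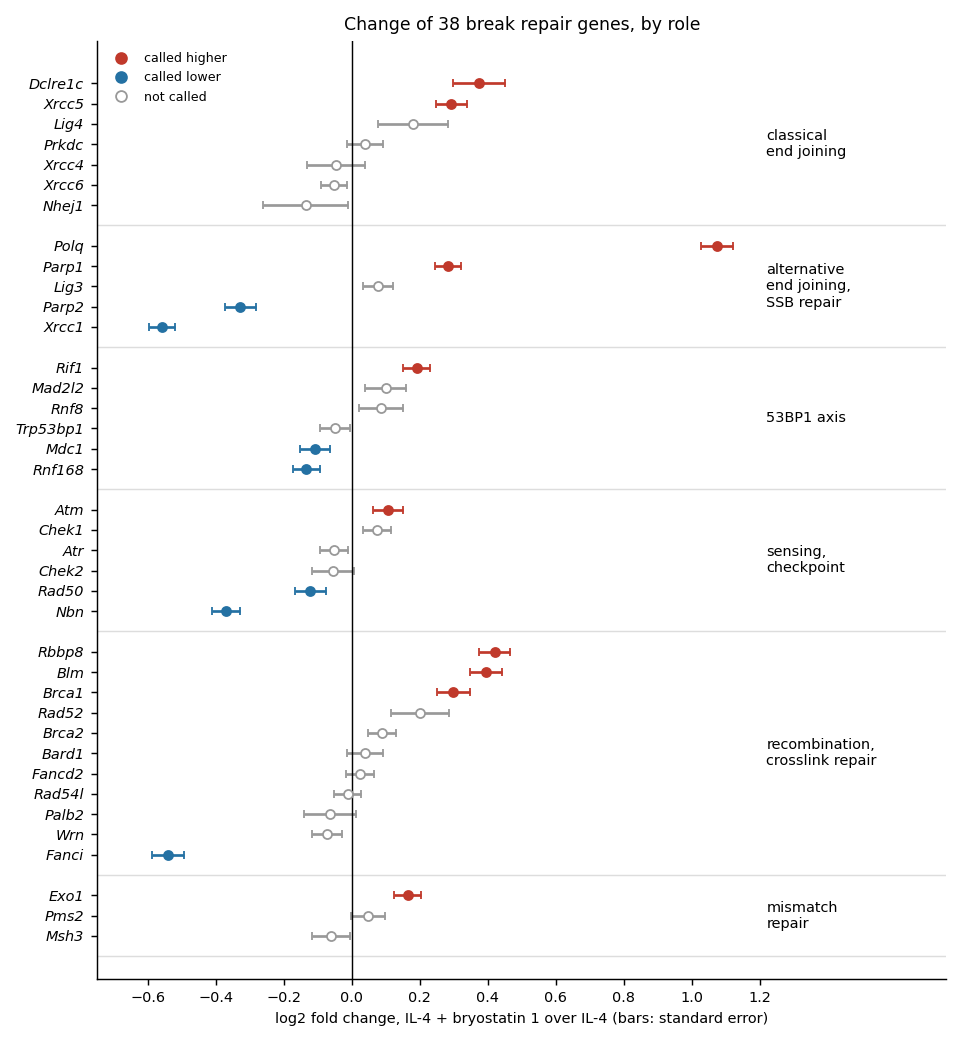
Log2 fold change of each of the 38 members (horizontal axis, IL-4 + bryostatin 1 over IL-4, bars show the standard error), grouped by role. Filled points were called by edgeR at an adjusted p under 0.05. Polq stands at 1.08, far to the right of the next member, Rbbp8 at 0.42, and Xrcc1 and Fanci stand lowest at -0.56 and -0.54.

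The promoters of the called members with the largest changes are shown first, since the members moved in opposite directions and the text below returns to them. RefSeq promoters on GRCm38.p6 matched 30 of the 38 members. Each line gives the 250 bases before the start of the gene, 5′ to 3′ on the strand of the gene. Capitals mark matches on either strand to 4 kinds of word that promoters of proliferation genes often carry: the E2F words TTTCCCGC and TTTGGCGC, the CHR words TTTGAA and TTCGAA, the CCAAT box and the GC box GGGCGG, with overlapping matches all marked. Polq, Blm and Dclre1c were the 3 largest rises and Xrcc1, Fanci and Parp2 the 3 largest falls among called members with a promoter in that table.
Polq (chr16:37011536-37011785, plus strand): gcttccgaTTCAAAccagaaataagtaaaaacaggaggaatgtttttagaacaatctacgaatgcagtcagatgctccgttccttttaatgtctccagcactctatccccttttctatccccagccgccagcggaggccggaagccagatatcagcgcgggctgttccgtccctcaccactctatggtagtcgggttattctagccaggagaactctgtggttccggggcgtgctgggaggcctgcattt
Blm (chr7:80534999-80535248, minus strand): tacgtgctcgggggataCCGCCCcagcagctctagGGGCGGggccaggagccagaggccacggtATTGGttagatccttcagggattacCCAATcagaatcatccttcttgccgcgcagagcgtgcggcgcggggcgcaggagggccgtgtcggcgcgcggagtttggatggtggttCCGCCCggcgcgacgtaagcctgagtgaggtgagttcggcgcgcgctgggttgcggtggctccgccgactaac
Dclre1c (chr2:3423881-3424130, plus strand): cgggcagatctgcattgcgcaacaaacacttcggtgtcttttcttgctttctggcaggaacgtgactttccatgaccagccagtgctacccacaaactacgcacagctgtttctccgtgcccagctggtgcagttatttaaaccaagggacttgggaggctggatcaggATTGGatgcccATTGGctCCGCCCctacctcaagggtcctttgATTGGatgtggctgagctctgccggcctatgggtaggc
Xrcc1 (chr7:24546449-24546698, plus strand): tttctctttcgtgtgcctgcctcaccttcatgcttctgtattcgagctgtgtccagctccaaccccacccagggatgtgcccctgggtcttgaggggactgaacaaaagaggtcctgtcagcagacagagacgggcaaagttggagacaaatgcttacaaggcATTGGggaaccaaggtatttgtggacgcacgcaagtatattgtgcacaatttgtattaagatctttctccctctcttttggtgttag
Fanci (chr7:79392088-79392337, plus strand): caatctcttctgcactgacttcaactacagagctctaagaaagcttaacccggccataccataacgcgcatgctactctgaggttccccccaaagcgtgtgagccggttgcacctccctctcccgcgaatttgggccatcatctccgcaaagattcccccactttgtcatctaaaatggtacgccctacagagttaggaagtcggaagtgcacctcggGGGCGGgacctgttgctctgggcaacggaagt
Parp2 (chr14:50807666-50807915, plus strand): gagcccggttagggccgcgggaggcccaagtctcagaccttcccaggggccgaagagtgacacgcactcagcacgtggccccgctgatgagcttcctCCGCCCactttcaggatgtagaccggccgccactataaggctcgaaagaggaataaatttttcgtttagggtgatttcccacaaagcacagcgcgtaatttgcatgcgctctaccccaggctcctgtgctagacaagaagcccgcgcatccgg
The Polq window held 1 CHR word and no CCAAT or GC box. Blm carried 2 CCAAT boxes and 3 GC boxes, and Dclre1c 3 CCAAT boxes and 1 GC box. Among the genes that fell, Xrcc1 held 1 CCAAT box, and Fanci and Parp2 held 1 GC box each. None of the 6 windows held an E2F word.

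E2F words were found elsewhere, in 6 of the 30 members (20.0%), beside 3.59% of the 9877 tested genes that have a promoter in the same table, both over 300 bases of promoter. These 6 sites are printed because E2F factors drive many replication and repair genes, with the word in capitals and 10 bases on either side.
Bard1 (chr1:71103164-71103191, minus strand): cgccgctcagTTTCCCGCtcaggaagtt
Chek2 (chr5:110839821-110839848, plus strand): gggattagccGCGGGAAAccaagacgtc
Brca2 (chr5:150522443-150522470, plus strand): ttaggccacaGCGGGAAAcagacacaca
Msh3 (chr13:92355188-92355215, minus strand): tgccgtcaagTTTGGCGCgaaatcgcag
Xrcc6 (chr15:82016313-82016340, plus strand): gggggtggaaGCGGGAAAtgcgagtggg
Mdc1 (chr17:35841472-35841499, plus strand): cttcagcctgTTTCCCGCcggtagccgc
The RNAs of these 6 genes had log2 fold changes between -0.11 and 0.09, and only Mdc1 was called, lower. CCAAT boxes were in 46.7% of members and 43.8% of tested genes, GC boxes in 76.7% and 67.2%, and CHR words in 13.3% and 17.3%. A match is a description of these letters and not of a bound factor.

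Among the genes of alternative end joining and single-strand break repair, 2 of the 5 were called higher and 2 lower, in a table where 58.2% of all genes were called. Polq encodes DNA polymerase theta, the central enzyme of alternative end joining, and had 132, 118 and 135 CPM with bryostatin 1, against 62.3, 59.5 and 61.0 CPM in IL-4. Every tested sample lay above every control, by 2.11-fold (log2 fold change 1.08, SE 0.05, adjusted p = 1.8e-12, edgeR). By size of change Polq ranked 1313 among the 13863 genes tested.
Xrcc1, the scaffold that gathers single-strand break repair enzymes, moved the other way. It had 58.4, 59.4 and 59.5 CPM with bryostatin 1, against 87.0, 86.4 and 87.5 CPM in IL-4 (log2 fold change -0.56, SE 0.04, adjusted p = 7.5e-10, edgeR). The groups were far apart and tight.
Lig3, the ligase that XRCC1 carries to breaks, did not pass the test, at 56.0 ± 0.51 CPM with bryostatin 1 and 53.02 ± 1.96 CPM in IL-4 (SD, n = 3 each, log2 fold change 0.08, SE 0.04). Exons of Lig3 share 1826 bases with Rffl on the opposite strand in the GENCODE M21 annotation, and Rffl was called higher (0.58). The sources do not state whether the authors' counting used strand, so reads of such overlapping genes cannot be told apart.
The 2 poly(ADP-ribose) polymerases that mark breaks moved in opposite directions. Parp1 rose to 745 ± 14.1 CPM with bryostatin 1, against 612 ± 26.1 CPM in IL-4 (log2 fold change 0.28). Parp2 fell to 54.4 ± 2.12 CPM with bryostatin 1, against 68.4 ± 2.86 CPM in IL-4 (log2 fold change -0.33).

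Classical end joining showed 2 called rises and no called fall among its 7 members (28.6% called, beside 58.2% of all genes), with a median log2 fold change of 0.04. Xrcc5, which encodes Ku80, had 71.3, 76.7 and 73.8 CPM with bryostatin 1, against 57.3, 63.1 and 60.4 CPM in IL-4 (log2 fold change 0.29, SE 0.05, adjusted p = 2.6e-05, edgeR). Xrcc6, which encodes its partner Ku70, had 70.8, 69.7 and 69.2 CPM with bryostatin 1, against 71.5, 73.0 and 73.2 CPM in IL-4 (log2 fold change -0.05, SE 0.04, adjusted p = 0.25, edgeR). The Ku80 RNA thus rose in all tested samples, while the Ku70 RNA was slightly lower in each of them without passing the test. Exons of Xrcc6 share 344 bases with Desi1 on the opposite strand, a gene called higher (0.25).
The DNA-dependent protein kinase gene Prkdc had 67.6, 65.4 and 74.0 CPM with bryostatin 1, against 65.4, 71.8 and 64.4 CPM in IL-4 (log2 fold change 0.04, SE 0.05). Xrcc4 had 10.6, 9.73 and 10.6 CPM with bryostatin 1, against 10.3, 11.3 and 10.4 CPM in IL-4 (log2 fold change -0.05, SE 0.09). Both groups overlapped for each of these genes.
Lig4, the ligase of the pathway, had 11.1, 10.6 and 14.0 CPM with bryostatin 1, against 10.5, 11.2 and 9.78 CPM in IL-4 (log2 fold change 0.18, SE 0.10, adjusted p = 0.14, edgeR). Replicate 3 with bryostatin 1 was the highest sample, and the other two lay within the range of the controls.
Dclre1c, the Artemis nuclease that opens hairpins and trims ends, rose to 22.4 ± 2.39 CPM with bryostatin 1, against 17.2 ± 0.40 CPM in IL-4 (log2 fold change 0.38). Its exons share 357 bases with Suv39h2 on the opposite strand, a gene called higher (0.79), and its row with the fewest counts lost the call (log2 fold change 0.27, adjusted p = 0.088, edgeR). Nhej1, the XLF factor that bridges ends, was the lowest member in count and gave 4.49 ± 0.28 CPM with bryostatin 1 and 4.93 ± 0.22 CPM in IL-4 (log2 fold change -0.14, SE 0.13), which did not pass.

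**Figure D2:**
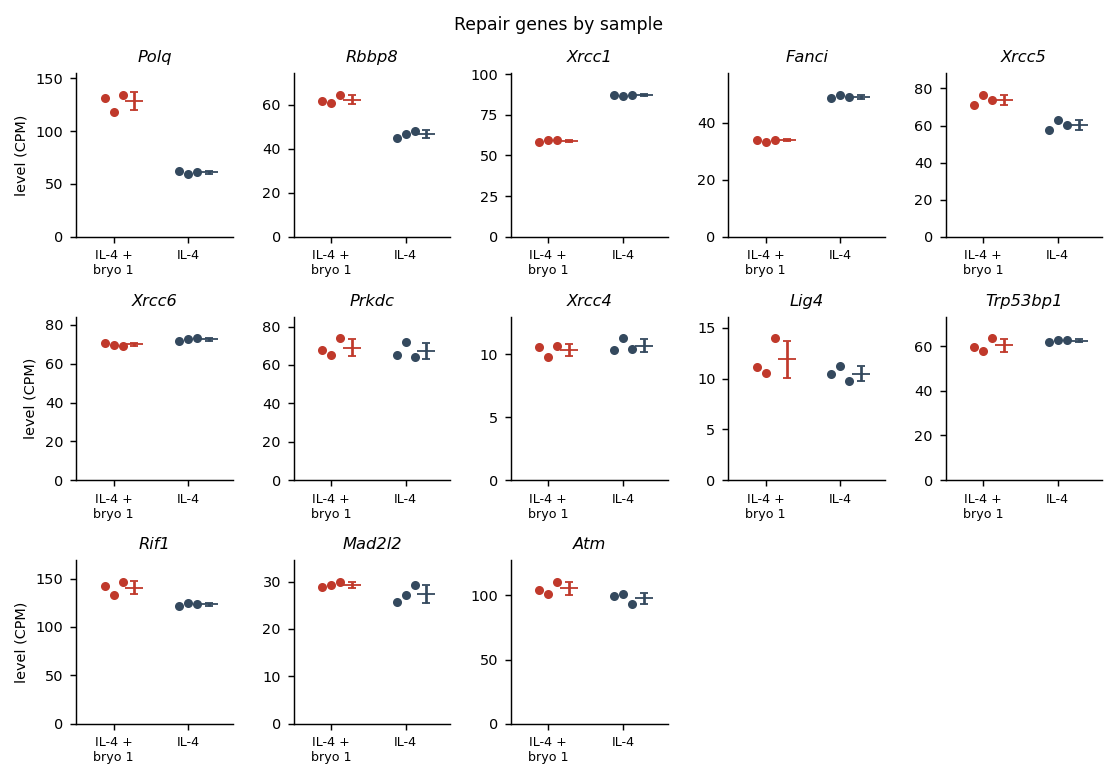
Level in CPM (vertical axis, starting at 0) of the 4 called members with a log2 fold change of at least 0.4 in size and of 9 core members, in each sample. Points are samples, horizontal dashes with bars are the mean and SD of 3, with IL-4 + bryostatin 1 left of IL-4. The groups stand clearly apart for Polq, Rbbp8, Xrcc1, Fanci and Xrcc5, and overlap for Prkdc, Xrcc4, Lig4, Trp53bp1 and Mad2l2.

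The 6 members of the 53BP1 axis held 1 called rise and 2 called falls, a called share of 50.0% beside 58.2% of all genes, and none differed by more than 0.2 on the log2 scale. Trp53bp1, the gene of 53BP1 itself, had 59.8, 57.8 and 63.6 CPM with bryostatin 1, against 61.8, 62.8 and 62.7 CPM in IL-4 (log2 fold change -0.05, SE 0.04). The tested samples spanned the controls. Its exons share 2130 bases with Tubgcp4 on the opposite strand, which did not pass the test (0.00).
Rif1, the effector through which 53BP1 limits resection, had 142, 133 and 147 CPM with bryostatin 1, against 122, 124 and 124 CPM in IL-4. All tested samples were above the controls (log2 fold change 0.19, SE 0.04, adjusted p = 4.8e-04, edgeR). Mad2l2, the REV7 subunit of shieldin, had 28.8, 29.3 and 29.98 CPM with bryostatin 1, against 25.6, 27.3 and 29.2 CPM in IL-4 (log2 fold change 0.10, SE 0.06), and the groups overlapped.
Upstream of 53BP1, the ubiquitin ligase gene Rnf168 fell to 64.7 ± 1.01 CPM with bryostatin 1, against 71.0 ± 1.40 CPM in IL-4 (log2 fold change -0.13, adjusted p = 0.0077, edgeR). Mdc1, which reads phosphorylated histone H2AX, was called lower at -0.11 (adjusted p = 0.042, edgeR), a call lost under 7 of 16 alternatives. It was lost without bryostatin 1 replicate 1 (adjusted p = 0.093), bryostatin 1 replicate 2 (0.171) or IL-4 replicate 1 (0.153) in the same edgeR test. Rnf8, the ubiquitin ligase that MDC1 recruits, did not pass (0.09, SE 0.06), and its exons share 1542 bases with Gm28043 on the same strand.

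In break sensing and checkpoint signalling, 1 member was called higher, 2 lower and 3 not (50.0% called, beside 58.2% of all genes). Atm, the kinase that answers double-strand breaks, had 104, 101 and 111 CPM with bryostatin 1, against 99.7, 101 and 93.1 CPM in IL-4. The lowest tested sample lay only just above the highest control, at 101.3 against 101.1 CPM (log2 fold change 0.11, SE 0.04, adjusted p = 0.044, edgeR), and 7 of 16 alternatives lost the call. Without bryostatin 1 replicate 1 or 3 the adjusted p by edgeR was 0.061 or 0.199, and without IL-4 replicate 2 or 3 it was 0.054 or 0.20.
Nbn, which binds ATM within the MRE11-RAD50-NBS1 complex, fell to 57.5 ± 1.51 CPM with bryostatin 1, against 74.3 ± 1.99 CPM in IL-4 (log2 fold change -0.37, SE 0.04, adjusted p = 5.5e-07, edgeR). Rad50, the ATPase of the same complex, was called lower at -0.12 (adjusted p = 0.028, edgeR), but its groups overlapped and 6 of 16 alternatives lost the call. Without bryostatin 1 replicate 1 or 2 the adjusted p by edgeR was 0.078 or 0.168, and without IL-4 replicate 2 or 3 it was 0.054 or 0.107. Mre11a, the nuclease of the complex and not one of the 38 genes, was named after its values were seen. It gave 82.0 ± 0.66 CPM with bryostatin 1 and 77.1 ± 4.09 CPM in IL-4 and did not pass (log2 fold change 0.09, adjusted p = 0.086, edgeR).
Atr and Chek1, the kinases that answer replication stress, had log2 fold changes of -0.05 (SE 0.04) and 0.07 (SE 0.04), and Chek2, the effector of ATM, had -0.06 (SE 0.06). None of these 3 passed the test.

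Homologous recombination and crosslink repair held 3 called rises, 1 called fall and 7 genes not called (36.4% called, beside 58.2% of all genes). Rbbp8 encodes CtIP, which starts resection of broken ends, and had 61.7, 60.6 and 64.6 CPM with bryostatin 1, against 44.6, 46.9 and 48.1 CPM in IL-4. The groups did not overlap (log2 fold change 0.42, SE 0.05, adjusted p = 3.6e-07, edgeR). Exons of Rbbp8 share 402 bases with AC090479.2 on the opposite strand, a gene with no tested value.
The helicase gene Blm, whose product extends resection, rose to 94.7 ± 0.81 CPM with bryostatin 1, against 72.0 ± 5.26 CPM in IL-4 (log2 fold change 0.40, SE 0.05). Exo1, the nuclease that works beside it and also serves mismatch repair, rose to 62.7 ± 0.96 CPM with bryostatin 1, against 56.0 ± 0.26 CPM in IL-4 (log2 fold change 0.16, SE 0.04).
Brca1, which promotes resection, rose to 90.5 ± 6.05 CPM with bryostatin 1, against 73.5 ± 3.33 CPM in IL-4 (log2 fold change 0.30, SE 0.05). Its partner Bard1 did not pass (0.04, SE 0.05), nor did Palb2 (-0.06, SE 0.08) and Brca2 (0.09, SE 0.04), which act after BRCA1. Likewise Rad52 (0.20, SE 0.09), an annealing factor, missed the threshold with an adjusted p of 0.053 by edgeR and passed it without bryostatin 1 replicate 1 (0.044) or IL-4 replicate 1 (0.0078), and the motor gene Rad54l (-0.01, SE 0.04) and the helicase gene Wrn (-0.07, SE 0.04) did not pass.
Fanci and Fancd2 encode the 2 subunits of the clamp that marks interstrand crosslinks. Fanci had 34.1, 33.4 and 33.9 CPM with bryostatin 1, against 48.7, 50.0 and 49.1 CPM in IL-4 (log2 fold change -0.54, SE 0.05, adjusted p = 1.7e-08, edgeR). It was lower in every tested sample, while Fancd2 gave 59.2 ± 1.31 CPM with bryostatin 1 and 58.3 ± 0.99 CPM in IL-4 (0.02, SE 0.04). Exons of Fanci share 921 bases with Polg on the opposite strand, and Polg was itself called lower (-0.27).
In mismatch repair proper, neither Msh3 (-0.06, SE 0.06), which recognises loops, nor Pms2 (0.05, SE 0.05), a subunit of the nuclease that follows, passed the test.

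**Figure D3:**
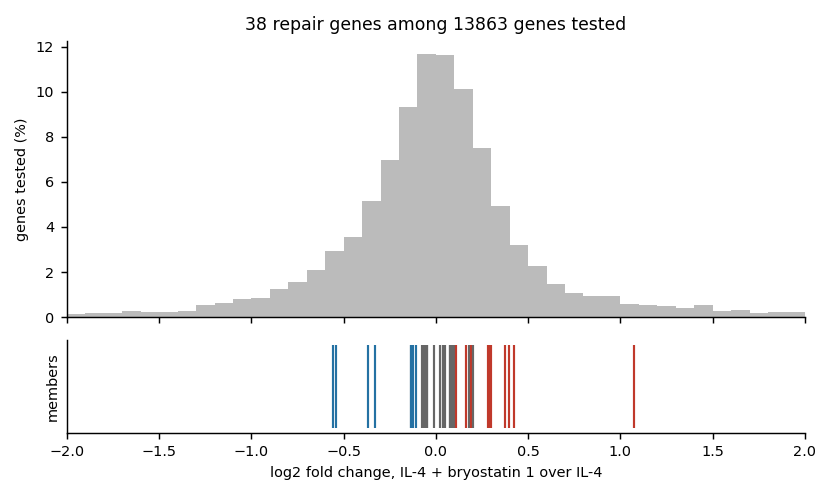
Share of the 13863 genes tested in each bin of 0.1 log2 fold change (upper panel) and the log2 fold change of each of the 38 members (lower panel, red called higher, blue called lower, grey not called). The axis is cut at 2 in size, which leaves 465 genes outside. The members cluster within 0.2 of no change and Polq stands apart at 1.08.

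Because several members work in pairs, the ratio of 2 RNAs was taken within each sample for 9 pairs, chosen after the values were seen and so given with no test. These are ratios of counts that carry the length of each transcript, so only their difference between groups can be read. Xrcc1 over Lig3 averaged 1.06 ± 0.01 with bryostatin 1 and 1.64 ± 0.07 in IL-4 (SD, n = 3 each), a difference of -0.64 on the log2 scale. Fanci over Fancd2 averaged 0.571 ± 0.007 with bryostatin 1 and 0.845 ± 0.03 in IL-4, a difference of -0.56. For both pairs the first gene fell and the second was not called.
The Ku pair, Xrcc5 over Xrcc6, was 1.01, 1.10 and 1.07 with bryostatin 1, against 0.802, 0.865 and 0.826 in IL-4. Brca1 over Bard1 averaged 2.54 ± 0.19 with bryostatin 1 and 2.12 ± 0.11 in IL-4. Nbn over Rad50 averaged 0.561 ± 0.05 with bryostatin 1 and 0.664 ± 0.007 in IL-4. None of these 3 pairs overlapped between the groups. In 63.5% of all genes the groups did not overlap either, and no share over other pairs of genes was taken.
Xrcc4 over Lig4 averaged 0.878 ± 0.10 with bryostatin 1 and 1.02 ± 0.04 in IL-4, where neither gene was called. Atm over Chek2 differed by 0.16 and Atr over Chek1 by -0.13 on the log2 scale. Of the 9 pairs only Palb2 over Brca2 overlapped between the groups.

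**Figure D4:**
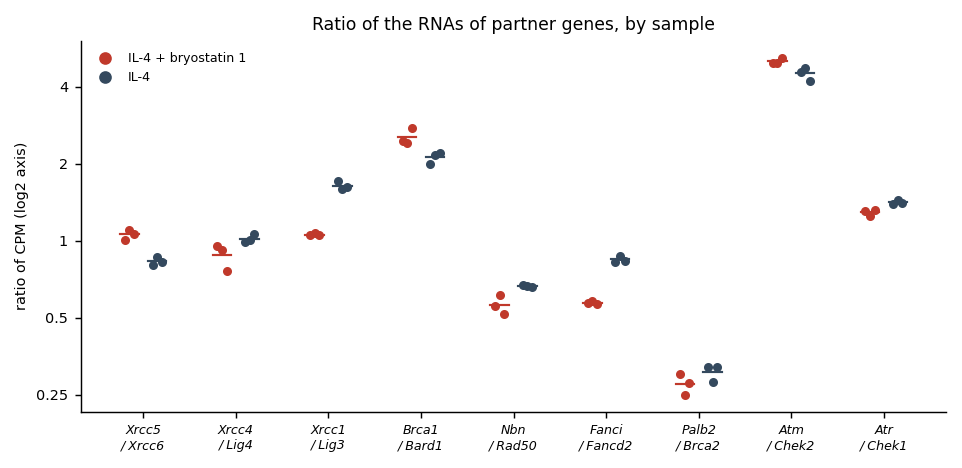
Ratio of the CPM of 2 partner genes in each sample (vertical log2 axis) for 9 pairs, with IL-4 + bryostatin 1 left of IL-4; short lines are means of 3 samples. Xrcc1 over Lig3 is near 1.06 with bryostatin 1 and 1.64 in IL-4, and Palb2 over Brca2 overlaps between the groups.

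A further 94 genes of the same pathways were listed by name, of which 92 could be tested, and they moved both ways. By edgeR 27 were called higher, 25 lower and 40 not called, with a median log2 fold change of 0.00. By DESeq2 16 were called higher and 21 lower, in a fit that called 40.7% of all the genes it tested. The share called by edgeR was 56.5%, near the 58.2% of all genes. Among end joining genes, Paxx, a Ku-binding accessory factor, fell (-0.68), Tdp2, which removes trapped topoisomerase from ends, rose (0.35), and Tdp1, which cleans ends, fell (-0.26). Of 21 genes around 53BP1, 5 were called higher and 7 lower (57.1% called, beside 58.2% of all genes). The called genes included H2ax, the histone that MDC1 reads (-0.56), Brcc3, a deubiquitinase (0.46), Rev3l (-0.36) and Nudt16l1, the TIRR protein that binds 53BP1 (-0.35). In checkpoint signalling Timeless (0.41) and the ATR activator Etaa1 (0.27) rose, and Wee1 (-0.36) and Rad9a (-0.23) fell.
Of 43 other recombination and crosslink repair genes, 13 were called higher and 10 lower (53.5% called, beside 58.2% of all genes). Among them were Recql5, a helicase (-0.71), Sfr1 (0.57), the recombination factor Xrcc3 (-0.42) and Rmi1, a partner of BLM (-0.41). In mismatch repair Pms1 (0.21) rose and Mlh3 (-0.34) fell. The lymphoid end joining polymerase Dntt stayed at no more than 2 counts per library and was not tested.
Many repair genes follow the cell cycle, and cell cycle genes also differed. Of 30 genes of the G1/S transition and replication, 13 were called higher and 6 lower (63.3% called, beside 58.2% of all genes), with E2f2 at -1.11, Rfc3 at 0.48, Ccne1 at 0.44 and Cdc45 at 0.42. Of 24 genes of G2/M and mitosis, 8 were called higher and 12 lower (83.3% called), with Nusap1 at -0.38 and Ube2c, Cenpf and Birc5 between -0.35 and -0.32. The part of these differences in the values of the members was not tested.

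The deposited counts are per transcript, and the 38 members have 307 transcript rows. Where a row held at most 60% of the counts of its gene's highest row, the row with fewer counts mostly gave a higher ratio of IL-4 + bryostatin 1 over IL-4. This was so in 12 of 14 members, with a median difference of 0.12 on the log2 scale. The same was seen over all genes tested, where 1133 of 1384 genes (81.9%) differed in that direction, with a median of 0.09.
Atm shows it most, with a log2 ratio of 0.49 in its row with the fewest counts and 0.11 in its row with the most. The same pair of values was 0.28 and 0.04 for Bard1, 0.29 and 0.09 for Brca2, and 0.18 and -0.05 for Atr. Xrcc1 kept its direction, at -0.43 and -0.56, as did Fanci, at -0.42 and -0.54, while the rows of Polq ranged from 1.05 to 1.16. How rows share counts thus moved with the groups, and its part in small changes such as those of Atm, Bard1, Brca2 and Atr was not tested.

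**Figure D5:**
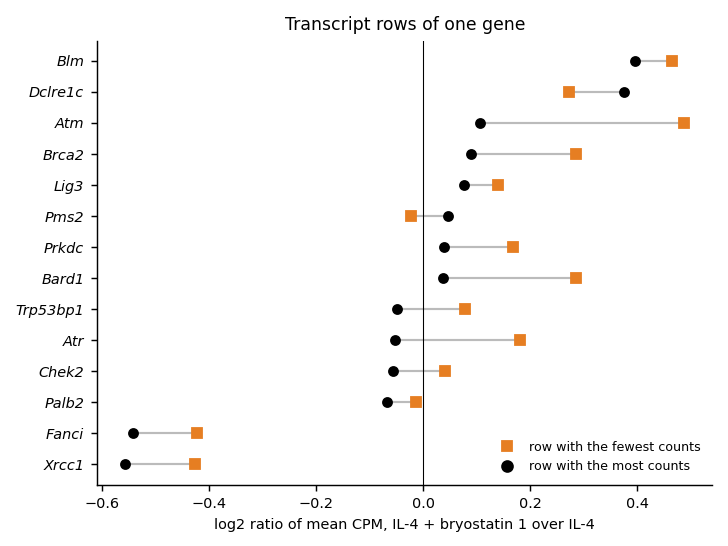
Log2 ratio of mean CPM, IL-4 + bryostatin 1 over IL-4 (horizontal axis), for the transcript row with the fewest counts (orange squares) and the row with the most (black circles), in the 14 members where the first held at most 60% of the counts of the second. The squares lie to the right of the circles in 12 members, by the most in Atm.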

How the data were processed

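RNA of 6 B cell samples, 3 per group, was sequenced after a directional library kit. The authors' steps were adaptor removal (cutadapt), quality trimming (sickle), mapping (Hisat2), sorting (Samtools) and counting (featureCounts). Their versions, the genome build and the strand setting were not given in the sources used. The deposited table holds raw counts per RefSeq transcript. It also holds the authors' own log2 ratios and levels, p-values and q-values, rank and call, and none of these was used.

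For each gene the transcript row of highest mean over the 6 samples was taken, and genes were kept by filterByExpr (minimum count 10, minimum total 15). Scaling factors came from 3 rounds of the DEGES scheme, in which TMM is repeated without the genes that an exact test calls (false discovery rate 0.1, at least 5% of genes). Groups were compared by quasi-likelihood F tests (edgeR 4.0.16, R 4.3.3) without covariates, adjusted over all genes by Benjamini-Hochberg. Each gene had 4 residual degrees of freedom, to which the test adds variance information shared across genes. Standard errors are the size of the log2 fold change over the root of F. The package DESeq2 1.42.0, other scalings, rows, filters, a replicate block and leaving out each sample served as alternatives; the mRNA row was added after the data were seen. Exact permutation tests of 3 against 3 cannot go below 0.1 and were not used for calls.

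Members and lists were chosen with earlier results of these data known. All members are named. Values in every sample are given for called members with a log2 fold change of at least 0.4 in size and for 9 core genes, and of each list of other genes up to 4 called genes with the largest change are named. Some genes that this rule takes are not reported here. Hbb-bt, Adgre1, Lyz2, Itgam, Csf1r, Trac, Lat, Cd74, Cd14, S100a8, Alas2, Dntt and the plasma cell genes were chosen after their values were seen, as were genes overlapping a member. Promoters came from RefSeq on GRCm38.p6, and shared exon bases from GENCODE M21.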

Additional observations from a re-analysis of the deposited data

How the results depend on the processing

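Over 38 members and 16 alternatives, 567 of 608 values kept their direction and their side of the threshold, 21 lost a call, 10 gained one and 10 changed sign without passing the test. Lost calls were in Atm, Mdc1, Rad50 and Dclre1c, and gained ones in Rad52 (4 alternatives), Brca2 (3, with values up to 0.28) and Bard1, Lig3 and Chek1 (1 each). The members' median of 0.04 was 0.0700 with counts summed over rows, 0.0750 with the lowest row of each gene and 0.0659 with scaling to total counts only, which moves the median of all genes to 0.03, and between 0.0168 and 0.0571 when 1 sample was left out, lowest without IL-4 replicate 2. DESeq2 called 16 other repair genes higher, against 27, and it called 40.7% of all the genes it tested, against 58.2%. In the lowest row the sign changed for Trp53bp1 (0.0725), Atr (0.175), Pms2 (-0.0352), Chek2 (0.0333) and Rad54l (0.0333). Rad54l was 0.00947 with summed rows and 0.0154 with total counts only. When 1 sample was left out the values ranged from -0.00951 to 0.0796 for Prkdc, -0.0331 to 0.0144 for Rad54l and -0.000195 to 0.0436 for Fancd2. The cause was not tested. Correlations between the groups were 0.156, 0.068 and -0.0065 for same-numbered samples, and ran from -0.122 to 0.060 for the others. Values from 3 samples a group cannot decide whether the replicate numbers pair the samples. The replicate block gave 4258 genes called higher and 4049 lower, with 10 and 7 of the members, the same 17 as without the block. With 3 samples a group and a common variation of 3.88%, calls of small changes rest on the likeness of these replicates.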

Other observations

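Several members start close to a gene on the other strand, whose RNA was read as a second readout. Whether such genes use the same promoter elements was not tested. Among members whose start lies within 1000 bases of such a neighbour, 8 have a neighbour that could be tested. Atm (0.11) lies 376 bases from Npat, a histone gene activator, which rose to 70.9 ± 1.63 CPM with bryostatin 1, against 61.1 ± 3.68 CPM in IL-4 (SD, n = 3 each, log2 fold change 0.21, adjusted p = 7.3e-04, edgeR). Brca1 (0.30) lies 152 bases from Nbr1, an autophagy receptor (0.13, called higher). Lig4 (0.18, not called) lies 37 bases from Abhd13 (0.13, called higher).

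In the other pairs the neighbour was called and the member was not, or neither was. Xrcc6 (-0.05) lies 149 bases from Desi1, which rose to 83.0 ± 1.08 CPM with bryostatin 1, against 69.7 ± 2.08 CPM in IL-4 (log2 fold change 0.25, adjusted p = 3.0e-05, edgeR), but the 2 genes share 344 exon bases, so their readouts are not separate. Palb2 (-0.06) lies 95 bases from Dctn5, a dynactin subunit (-0.26, called lower), and Pms2 (0.05) lies 162 bases from Aimp2, a scaffold of tRNA synthetases (0.18, called higher). The neighbours Tmem167 of Xrcc4 (0.05) and Gm11423 of Lig3 (-0.05) were not called, and Tmem167 shares 112 exon bases with Xrcc4, so these readouts are not separate either. The differences within pairs were not tested.

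Rows with few counts also differed between groups over all genes. The median log2 ratio of the row with the fewest counts over the row with the most, in the 1384 genes where it held at most 60%, was -1.28, -1.29 and -1.22 with bryostatin 1, against -1.34, -1.35 and -1.38 in IL-4. The groups did not overlap. In the 2723 genes where the 2 rows were within 80 to 99% of each other the median difference between groups was 0.00.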
